A study of Mus musculus with 12 samples.

Results

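Interferon-stimulated genes are the genes that cells switch on when an interferon binds its receptor. The set described here was a named list of 41 mouse genes of this kind, taken as the rows of the deposited count table whose Ensembl identifiers map to those symbols. All 41 were found among the 55357 identifiers of the table, and 40 of them had enough counts to be tested among 15804 genes. The remaining member, the oligoadenylate synthetase Oas3, had 80 counts over all 12 libraries, so its values are given without a test.

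Type I and type III interferons signal through receptor-bound Jak kinases to a complex that holds Stat2 and Irf9 and enters the nucleus. That complex binds the interferon-stimulated response element in the promoters of its target genes, whereas type II interferon acts chiefly at gamma-activated sites. The targets include sensors of foreign nucleic acid, effectors that block viral RNA or protein synthesis, and regulators such as Irf7 and Usp18 that raise or restrain the response. In the heart the response has been studied mainly in viral myocarditis and after myocardial injury, where macrophages are one of the responding cell types.

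Heart tissue was profiled by paired-end mRNA sequencing in 4 groups of 3 libraries. The mice were male and on a C57BL/6J background, and underwent surgery at 8 weeks of age. Wild-type (WT) mice and mice lacking Cd163 (Cd163-/-, here KO), the scavenger receptor of macrophages for haemoglobin bound to haptoglobin, had either transverse aortic constriction (TAC), which loads the left ventricle with pressure by tying the aorta around a needle, or a sham operation without the tie. No source used here gives the time from surgery to collection, whether a library came from 1 mouse, or any restriction of the knockout to a cell type. The p-values therefore measure the spread between these libraries, which may be technical. WT sham mice carried neither change, WT TAC mice only the constriction, KO sham mice only the Cd163 deletion, and KO TAC mice both. Replicate numbers are those of the labels, 1, 2 and 3 for sham and 1, 3 and 5 for TAC, and values are listed in that order below.

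The response element itself can be read in the promoters of the members. RefSeq promoters of build GRCm38.p6, each running from 250 bases before to 50 bases after a gene's start, were matched by symbol for 29 of the 41 members. The core GAAANNGAAA, searched on both strands, was present in 16 of these 29 (55.2%) against 1079 of 27025 genes with a promoter (3.99%). The gamma-activated site TTCNNNGAA, also searched on both strands, was present in 7 (24.1%) against 2582 (9.55%). A gene with more than 1 listed promoter was counted once, and a match is a description of the letters, not evidence of binding. The 250 bases before the start of 4 members described below are shown 5′ to 3′ on the gene's strand, with every core match in capitals, because they span from 3 overlapping cores to none.
Isg15 (chr4:156200819-156201068, minus strand): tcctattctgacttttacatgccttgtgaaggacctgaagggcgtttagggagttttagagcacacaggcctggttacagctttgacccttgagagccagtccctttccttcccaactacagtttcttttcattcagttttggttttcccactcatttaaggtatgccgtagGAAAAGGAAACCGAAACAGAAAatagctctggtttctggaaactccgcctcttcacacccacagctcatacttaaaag
Oas1a (chr5:120907526-120907775, minus strand): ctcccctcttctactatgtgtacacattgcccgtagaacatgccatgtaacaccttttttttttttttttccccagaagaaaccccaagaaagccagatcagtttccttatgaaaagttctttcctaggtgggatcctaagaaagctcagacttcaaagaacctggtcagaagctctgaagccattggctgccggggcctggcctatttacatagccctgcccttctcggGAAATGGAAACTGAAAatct
Ifit1 (chr19:34640639-34640888, plus strand): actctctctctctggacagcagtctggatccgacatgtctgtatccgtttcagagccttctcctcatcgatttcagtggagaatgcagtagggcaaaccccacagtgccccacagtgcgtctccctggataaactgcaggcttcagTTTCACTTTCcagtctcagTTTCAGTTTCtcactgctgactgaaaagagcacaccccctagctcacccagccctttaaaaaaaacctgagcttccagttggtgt
Herc6 (chr6:57580742-57580991, plus strand): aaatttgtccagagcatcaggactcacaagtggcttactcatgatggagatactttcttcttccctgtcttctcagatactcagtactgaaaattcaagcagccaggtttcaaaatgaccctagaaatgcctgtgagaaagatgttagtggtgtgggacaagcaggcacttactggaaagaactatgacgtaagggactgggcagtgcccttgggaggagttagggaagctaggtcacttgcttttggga
Counting the base before the start as -1, Isg15 held 3 overlapping cores that begin at -78, -72 and -66. Oas1a held 2 overlapping cores beginning at -20 and -14, and Ifit1 held 2 separate cores on the opposite strand, beginning at -104 and -85. The Herc6 window held none. By role, the core was present in 4 of 4 matched interferon-inducible GTPases, 3 of 4 IFIT genes, 2 of 4 OAS genes, 1 of 4 transcription factors and 0 of 2 small interferon-induced proteins.

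Totals ran from 14150109 to 22602225 counts per library. Cd163 read 13.7 to 29.5 CPM (counts scaled to a common library size with edgeR's TMM factors) in the 6 WT libraries and 3.14 to 4.60 CPM in the 6 KO libraries, so the genotypes did not overlap. The library labelled KO sham replicate 1 stood apart from the other KO sham libraries: mitochondrially encoded genes took 51.0% of its counts against 31.6% and 30.5%, and 8 cardiomyocyte markers summed to 26870 CPM against 53930 and 50330. KO TAC libraries were at 44.0% to 51.3% and 34090 to 36650 CPM on the same measures. Acta1, the skeletal actin that pressure load is known to raise, read 1389 CPM in KO sham 1, against 509.6 and 803.4 in the other KO sham libraries and 1092 to 1251 in KO TAC. Nppa, another gene of cardiac load, read 1155 CPM in KO sham 1, against 186.2 and 108.8 in the other KO sham libraries. It read 320.3 to 840.4 in KO TAC, and 829.5 in WT sham 2. Nppb read 408.9 CPM in KO sham 1, against 270.3 and 294.5 in the other KO sham libraries and 196.6 to 320.1 in KO TAC. Myh7 read 456.4, against 356.7 and 307.4, and 551.7 to 709.1 in KO TAC. For each of these genes KO sham 1 was above the other KO sham libraries and outside the KO TAC range. Whether this library's label is correct cannot be settled from these values, and each KO sham value that includes it carries that limit. WT TAC replicate 1 had the lowest mitochondrial share of all libraries, 24.8% against 31.5% and 32.5% in the other WT TAC libraries, and stood apart in the members themselves, as described next. Results are therefore given with all libraries, without WT TAC 1, without KO sham 1 and without both. WT TAC 1 was set apart partly by the members' own values, so p-values of members without it depend on that choice.

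Summed over the 41 members, the level was 516.7 ± 88.6 CPM (SD, n = 3) in WT sham, 864.6 ± 452.1 in WT TAC, 820.1 ± 215.7 in KO sham and 1065 ± 122.1 in KO TAC. The single libraries read 520.1, 426.5 and 603.6 CPM in WT sham, 1379, 530.3 and 684.6 in WT TAC, 1069, 688.4 and 702.9 in KO sham, and 947.2, 1056 and 1191 in KO TAC. In bulk tissue, fewer cells of a type and less RNA per cell cannot be told apart in such values. WT TAC 1 was the highest of all 12 libraries, while WT TAC 3 lay within the range of WT sham. Of the 40 tested members, 39 were highest within WT TAC in replicate 1, and 30 were higher there than in any other library. Its level was a median of 2.32 times the mean of WT TAC 3 and 5, with a range over members of 0.826 to 4.18 times. KO sham 1 was the highest KO sham library for 32 of 40 members, and its ratio to the mean of KO sham 2 and 3 had a median of 1.46. The order within a group was thus shared by most members, in WT sham too, where replicate 2 was lowest for 33 and replicate 3 highest for 35. The same counts were not made over all genes, so this order is not shown to be particular to the members.

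**Figure D1:**
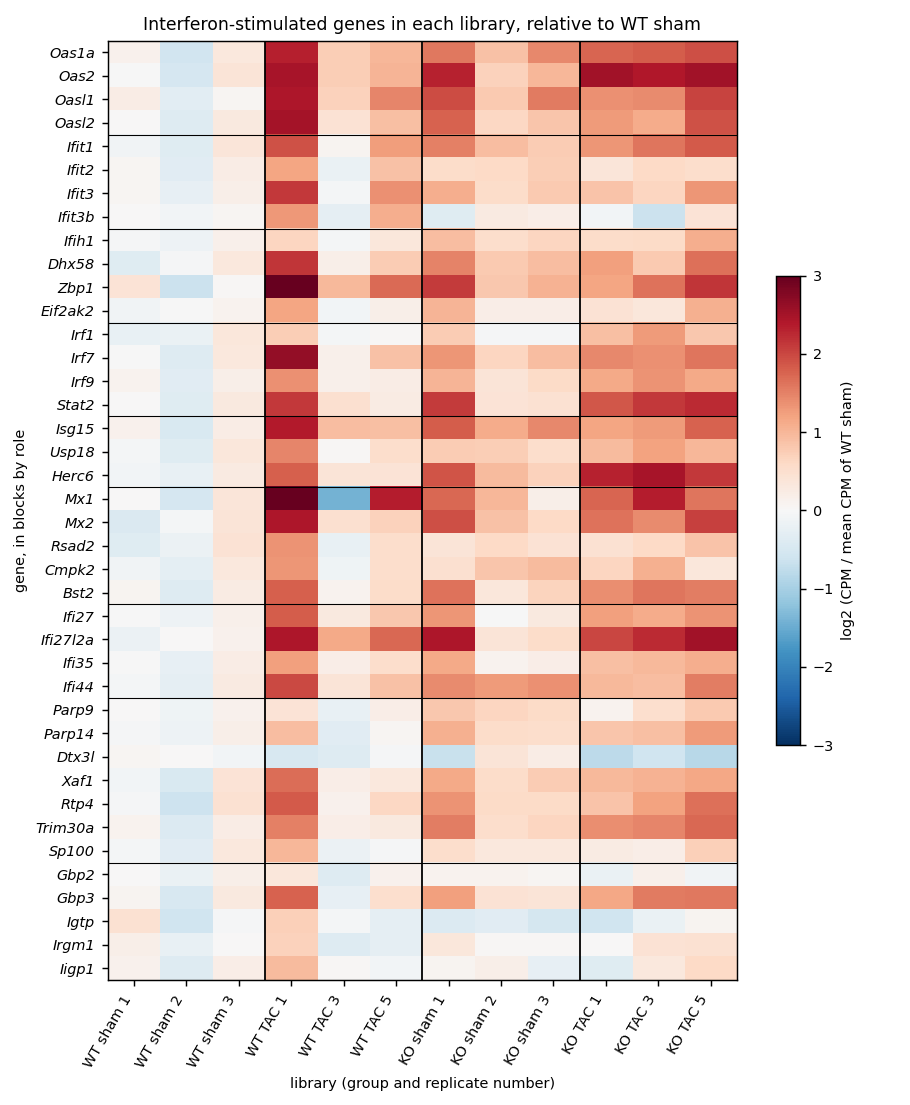
Each row is a tested member, in blocks by role, each column a library, and the colour is the log2 ratio of its CPM to the mean of the 3 WT sham libraries. WT TAC 1 is the darkest column of the WT libraries, being the highest of all 12 libraries for 30 of 40 members, which was not counted over all genes. Outside WT sham, Dtx3l is below its WT sham mean (blue) in all 3 WT TAC libraries, KO sham 1 and all 3 KO TAC libraries. It is lowest in KO sham 1 and KO TAC.

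The OAS genes encode oligoadenylate synthetases, which on double-stranded RNA make the messenger that activates RNase L, and related OAS-like proteins. Oas2 had the highest level per kilobase of exon among them (10.1 CPM per kb over the 12 libraries). It read 14.2, 10.1 and 18.6 CPM in WT sham, 78.9, 23.8 and 28.9 in WT TAC, 71.2, 23.2 and 28.6 in KO sham, and 81.6, 76.1 and 81.8 in KO TAC. WT TAC 1 and KO sham 1 lay near the KO TAC libraries, and the other libraries of their groups lay well below them but above every WT sham library. Oas1a read 2.44, 1.50 and 2.78 CPM in WT sham, 11.4, 3.71 and 4.46 in WT TAC, 6.76, 4.15 and 6.04 in KO sham, and 7.52, 7.90 and 8.52 in KO TAC. Every other library was above all 3 WT sham libraries, and KO TAC was above all of KO sham. Oasl1, whose product restrains translation of Irf7, read 1.11, 0.772 and 0.994 CPM in WT sham, 5.16, 1.56 and 2.67 in WT TAC, 3.75, 1.64 and 2.81 in KO sham, and 2.48, 2.58 and 3.93 in KO TAC. WT TAC and KO sham each stood above WT sham, whereas KO sham and KO TAC overlapped. Oasl2 read 11.1, 8.35 and 13.5 CPM in WT sham, 62.2, 14.9 and 20.5 in WT TAC, 37.3, 17 and 19.4 in KO sham, and 26.8, 23.9 and 41.1 in KO TAC. Its WT TAC 3 value was only just above the highest WT sham value. Oas3 ran from 0.0454 (WT sham 2) to 0.926 CPM (WT TAC 5) and had its highest value in a WT TAC library.

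**Figure D2:**
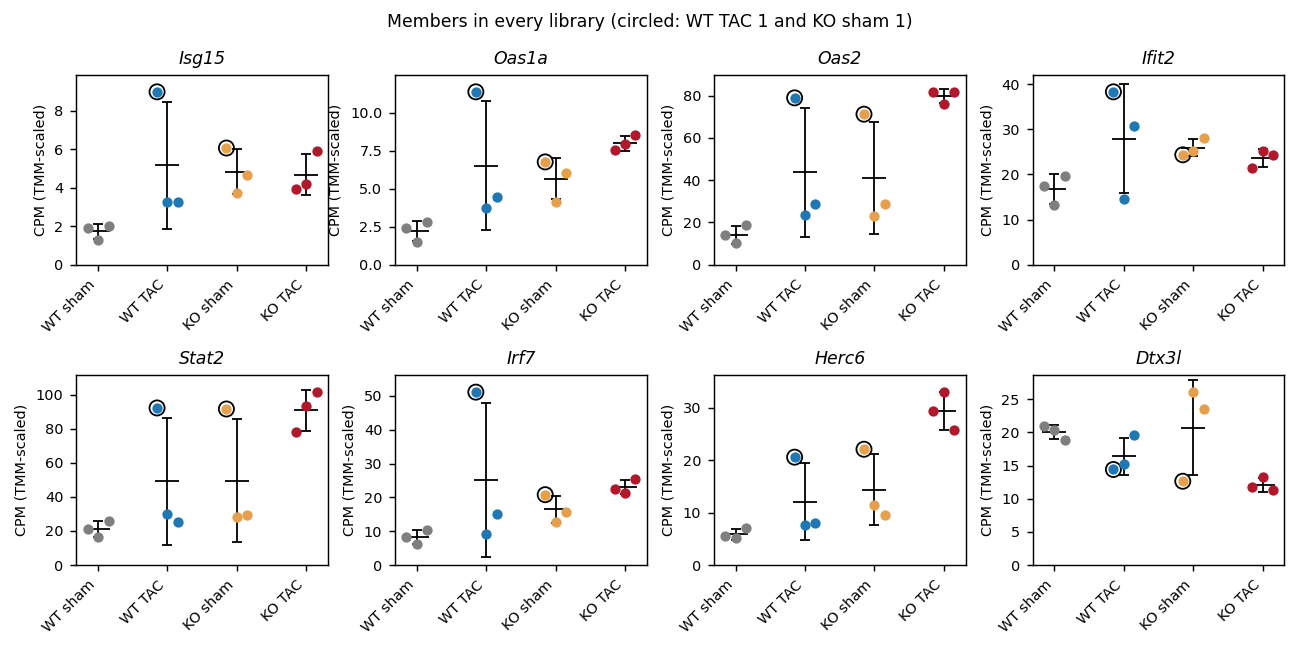
Points are the TMM-scaled CPM of 8 members in each of the 12 libraries, the short horizontal lines and bars are the group mean and SD (n = 3), and circles mark WT TAC 1 and KO sham 1. Oas2, Stat2 and Herc6 are high in both circled libraries and in KO TAC, whereas Ifit2 in the circled KO sham library is no higher than in the other KO sham libraries and Dtx3l is low there.

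IFIT proteins bind the ends of RNA that lack the marks of a host cap and hinder its translation. Ifit3 had the highest level per kilobase (6.97 CPM per kb). It read 6.83, 5.54 and 7.46 CPM in WT sham, 28.8, 6.34 and 17 in WT TAC, 14.1, 9.65 and 11.4 in KO sham, and 12, 10.2 and 16.6 in KO TAC. All KO libraries were above all WT sham libraries, and WT TAC ranged from within WT sham to the highest value of the series. Ifit2 read 17.4, 13.2 and 19.6 CPM in WT sham, 38.3, 14.7 and 30.8 in WT TAC, 24.4, 25.3 and 28 in KO sham, and 21.5, 25.2 and 24.3 in KO TAC. KO sham again stood above WT sham, but KO TAC overlapped KO sham, with KO sham 1 no higher than its group. Ifit3b, a near-identical copy of Ifit3 whose reads the counting may share with it, read 2.75, 2.54 and 2.83 CPM in WT sham, 6.69, 2.26 and 5.77 in WT TAC, 2.12, 3.29 and 3.09 in KO sham, and 2.55, 1.72 and 3.61 in KO TAC. Its 4 groups overlapped. Ifit1 ran from 3.45 (WT sham 2) to 16.6 CPM (WT TAC 1).

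Among the sensors of foreign nucleic acid, Eif2ak2 encodes the kinase that halts translation on double-stranded RNA, and read 14.1, 15.2 and 16.4 CPM in WT sham, 34.4, 14.3 and 17.4 in WT TAC, 30.9, 17.6 and 17.4 in KO sham, and 20.6, 19.3 and 32 in KO TAC. WT TAC 1, KO sham 1 and KO TAC 5 were the high libraries, and each stood above the rest of its group. Ifih1, which senses long double-stranded RNA, read 10.6, 9.76 and 12 CPM in WT sham, 16.8, 10.4 and 13.7 in WT TAC, 20.4, 15.6 and 16.9 in KO sham, and 15.9, 16.2 and 22.8 in KO TAC. All 6 KO libraries were above all 3 WT sham libraries, and only WT TAC 1 among the WT libraries reached them. Zbp1, a sensor of left-handed nucleic acid that can start cell death, read 0.847, 0.408 and 0.646 CPM in WT sham, 5.46, 1.24 and 2.07 in WT TAC, 2.73, 1.11 and 1.31 in KO sham, and 1.45, 1.96 and 2.82 in KO TAC. It rested on 394 counts in all, and WT TAC and KO sham each lay above WT sham. Dhx58, a regulator of these sensors, ran from 1.38 (WT sham 1) to 7.77 CPM (WT TAC 1).

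Of the transcription factors, Stat2 and Irf9 are the interferon-specific parts of the complex that binds the response element. Stat2 read 21.4, 16.5 and 26.1 CPM in WT sham, 92.1, 29.9 and 25.3 in WT TAC, 91.5, 28.1 and 29.1 in KO sham, and 77.8, 93.5 and 101 in KO TAC. The 12 libraries fell into a low set from 16.5 to 29.9 CPM and a high set from 77.8 to 101 CPM, the high set being KO TAC, WT TAC 1 and KO sham 1. Irf9 read 19.9, 14.6 and 20.7 CPM in WT sham, 47.7, 20.3 and 21.3 in WT TAC, 37.6, 24.1 and 27.6 in KO sham, and 40.7, 46.6 and 40.5 in KO TAC. KO TAC stood above KO sham, and KO sham above WT sham. Irf9 overlaps Rnf31 on the same strand, so part of its reads could belong to that gene. Irf1, the factor best known downstream of type II interferon, read 14.7, 15.1 and 21.9 CPM in WT sham, 28.7, 16.6 and 17.7 in WT TAC, 29.1, 16.7 and 16.8 in KO sham, and 32.1, 41.5 and 30.4 in KO TAC. KO TAC was above all 9 other libraries. Irf7, a factor that amplifies interferon production, read 8.26, 6.31 and 10.3 CPM in WT sham, 51.1, 9.19 and 15.2 in WT TAC, 20.8, 12.9 and 15.8 in KO sham, and 22.6, 21.4 and 25.4 in KO TAC. KO TAC stood just above KO sham, and WT TAC 1 was far above every other library. Irf7 overlaps Phrf1 on the opposite strand, and no source used here says whether the counting used strand. Reads in the stretch shared by the 2 genes therefore cannot be told apart, and the length of that stretch was not measured.

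Isg15 encodes the ubiquitin-like protein that is attached to other proteins in the response, Herc6 the main ligase that attaches it in mice, and Usp18 the protease that removes it. Isg15 read 1.91, 1.27 and 2.04 CPM in WT sham, 9.0, 3.28 and 3.27 in WT TAC, 6.07, 3.74 and 4.68 in KO sham, and 3.93, 4.22 and 5.90 in KO TAC. Every library outside WT sham was above WT sham, and KO TAC was within the spread of KO sham. Herc6 read 5.61, 5.08 and 7.11 CPM in WT sham, 20.6, 7.74 and 7.95 in WT TAC, 22.1, 11.6 and 9.56 in KO sham, and 29.4, 33 and 25.7 in KO TAC. KO TAC lay above all 9 other libraries, KO sham above WT sham, and WT TAC above WT sham. Usp18 read 3.28, 2.63 and 4.33 CPM in WT sham, 9.44, 3.49 and 4.96 in WT TAC, 5.80, 5.67 and 4.92 in KO sham, and 6.55, 7.82 and 6.82 in KO TAC. It had the same order in the KO groups as Herc6, with smaller steps, and WT TAC overlapped WT sham.

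Among the other antiviral effectors, Bst2 encodes tetherin, which holds budding virus at the cell surface, and had the highest level per kilobase (28.4 CPM per kb). It read 13.8, 9.99 and 15.5 CPM in WT sham, 45.4, 14 and 19.1 in WT TAC, 40.7, 16.6 and 20.7 in KO sham, and 34.4, 39.5 and 37.7 in KO TAC. KO sham 1 was near KO TAC, and KO sham 2 and 3 were between KO TAC and WT sham. Rsad2 encodes viperin, which makes a chain-terminating nucleotide, and read 19.4, 22.1 and 33.8 CPM in WT sham, 63.9, 21.3 and 36.1 in WT TAC, 33, 38.1 and 33.7 in KO sham, and 34.5, 38.1 and 45.1 in KO TAC. Its KO groups overlapped each other, KO sham also overlapped WT sham, and WT TAC 1 was the highest library. Mx1 and Mx2, of the dynamin-like GTPase family, ran from 0.215 (WT TAC 3) to 5.11 CPM (WT TAC 1) and from 1.43 (WT sham 1) to 10.4 CPM (WT TAC 1). Cmpk2, the nucleotide kinase beside Rsad2, ran from 7.54 (WT sham 2) to 23.3 CPM (WT TAC 1).

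The small interferon-induced proteins included the member with the highest level per kilobase of the whole set, Ifi27l2a (55.4 CPM per kb). It read 7.52, 8.49 and 9.30 CPM in WT sham, 45.1, 18.4 and 28 in WT TAC, 45.5, 11 and 12.4 in KO sham, and 33.9, 39.8 and 48.2 in KO TAC. KO sham 1 was 3.89 times the mean of KO sham 2 and 3 and lay within the range of KO TAC, while WT TAC was above WT sham in every library. Reads of Ifi27l2a may be shared with its near copy Ifi27l2b. Ifi27 read 19.2, 17.4 and 21.3 CPM in WT sham, 67.5, 23.6 and 34 in WT TAC, 48.7, 19 and 23.8 in KO sham, and 45.6, 41.9 and 49 in KO TAC. KO sham 2 and 3 did not leave the WT sham range by more than a few CPM, unlike KO sham 1 and KO TAC. Ifi44 read 4.50, 3.90 and 5.62 CPM in WT sham, 18.3, 6.13 and 8.60 in WT TAC, 12.5, 11.3 and 12.2 in KO sham, and 9.10, 8.84 and 13.4 in KO TAC. Here the 3 KO sham libraries lay close together, all above WT sham, and KO TAC overlapped them. Ifi35 ran from 8.58 (WT sham 2) to 24 CPM (WT TAC 1).

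Parp9 and Dtx3l encode partners in a ubiquitin ligase and lie head to head, overlapping on opposite strands. Dtx3l read 21, 20.3 and 18.9 CPM in WT sham, 14.4, 15.3 and 19.6 in WT TAC, 12.6, 26.1 and 23.5 in KO sham, and 11.7, 13.2 and 11.3 in KO TAC. It was the member that ran against the rest: KO TAC and KO sham 1 were the 4 lowest libraries. Parp9 read 19.8, 18 and 21.4 CPM in WT sham, 26.2, 17 and 22.6 in WT TAC, 34.6, 31 and 29.6 in KO sham, and 21.2, 27.9 and 34.2 in KO TAC. KO sham was above WT sham and WT TAC in every library, and KO TAC overlapped both KO sham and WT TAC. Parp14, which modifies proteins with single ADP-ribose units, read 31.7, 29.1 and 37 CPM in WT sham, 61.6, 25.7 and 33.9 in WT TAC, 67.8, 47.9 and 47 in KO sham, and 58.1, 61.2 and 79.4 in KO TAC. Both KO groups were above WT sham. Sp100, a scaffold of nuclear bodies, read 40.4, 33 and 52 CPM in WT sham, 83.6, 36.9 and 40.8 in WT TAC, 60.3, 51.9 and 52.2 in KO sham, and 49.2, 48.1 and 68.7 in KO TAC. Its groups overlapped with all libraries, while WT TAC 3 and 5 lay below every KO library. Trim30a ran from 10.8 (WT sham 2) to 47.1 CPM (KO TAC 5), Xaf1 from 8.26 (WT sham 2) to 36.4 CPM (WT TAC 1) and Rtp4 from 4.31 (WT sham 2) to 23.6 CPM (WT TAC 1).

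The interferon-inducible GTPases attack the membranes around intracellular pathogens and respond chiefly to type II interferon. Iigp1 read 46.8, 32.5 and 48.9 CPM in WT sham, 82, 43.5 and 40.1 in WT TAC, 45.2, 48.4 and 36.1 in KO sham, and 33.1, 53.2 and 64.2 in KO TAC. All 4 groups overlapped, with WT TAC 1 the highest library. Gbp3 read 15.6, 10.5 and 18.1 CPM in WT sham, 50.1, 12.4 and 20.9 in WT TAC, 34.7, 19.7 and 19.3 in KO sham, and 32.9, 43.2 and 44.1 in KO TAC. It followed the pattern of Stat2 more loosely, with WT TAC 1, KO sham 1 and KO TAC high. Gbp2 ran from 13.9 (WT TAC 3) to 23 CPM (WT TAC 1), Igtp from 9.59 (KO TAC 1) to 23.9 CPM (WT TAC 1) and Irgm1 from 17.8 (WT TAC 3) to 37.8 CPM (WT TAC 1). Igtp overlaps Irgm2 on the same strand. In all, 16 of the 41 members overlap another counted gene, 13 of them on the opposite strand.

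The first comparison asked how WT hearts responded to pressure overload. Their OAS genes, Isg15, Zbp1, Mx1 and Ifi27l2a were among the members with the highest fold changes against sham, and Dtx3l was the member with a negative one. The log2 fold changes of the other 39 were positive, with a median over the 40 of 0.91 against 0.013 over all genes. None passed an adjusted p of 0.05 in edgeR's quasi-likelihood test, where 0.0316% of all genes did, 5 of 15804. At an unadjusted p below 0.05 there were 26 members, against 16.2% of all genes. DESeq2 called 10 members (2.93% of all genes) and limma-voom with sample weights 7 (6.52%). The smallest p belonged to Isg15, at a log2 fold change of 1.58 ± 0.40 (SE), adjusted p = 0.15. Oas1a was at 1.54 ± 0.40, Zbp1 at 2.21 ± 0.57 and Oasl1 at 1.71 ± 0.45, each with an adjusted p of 0.153. In 11 members all WT TAC libraries lay above all WT sham libraries, a separation that 13.4% of all genes showed. These were Oas1a, Oas2, Oasl1, Oasl2, Zbp1, Isg15, Herc6, Mx2, Ifi27, Ifi27l2a and Ifi44. Of the roles, the OAS genes had the highest median (1.59) and the GTPases the lowest (0.20).

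Without WT TAC 1 the median was 0.37 and 32 of 40 fold changes were positive. No member was called by edgeR, where 0.136% of all genes were, and 8 had an unadjusted p below 0.05, where 10.6% of all genes did. The tools other than edgeR were not run on this set of libraries. Isg15 then had a log2 fold change of 0.91 ± 0.29 (adjusted p = 0.306), Irf7 moved from 1.61 to 0.56, and Stat2 from 1.20 to 0.37. With 2 WT TAC libraries left, 11 members lay above WT sham, where 19.7% of genes did, and Irgm1 lay below. Leaving out a library of the higher group cannot lower that count. KO sham 1 is in neither group compared here, and enters through the gene filter, the scaling and the estimate of spread that all libraries share. Without it, 8 members were called higher against 6.53% of all genes: Ifi27, Ifi27l2a, Ifi44, Isg15, Oas1a, Oas2, Oasl1 and Zbp1. Ifi27l2a had the smallest adjusted p among them (0.00441, log2 fold change 1.85 ± 0.26). Without both, 4 of these 8 remained against 6.18% of all genes: Ifi27, Ifi27l2a, Oas2 and Zbp1.

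**Figure D3:**
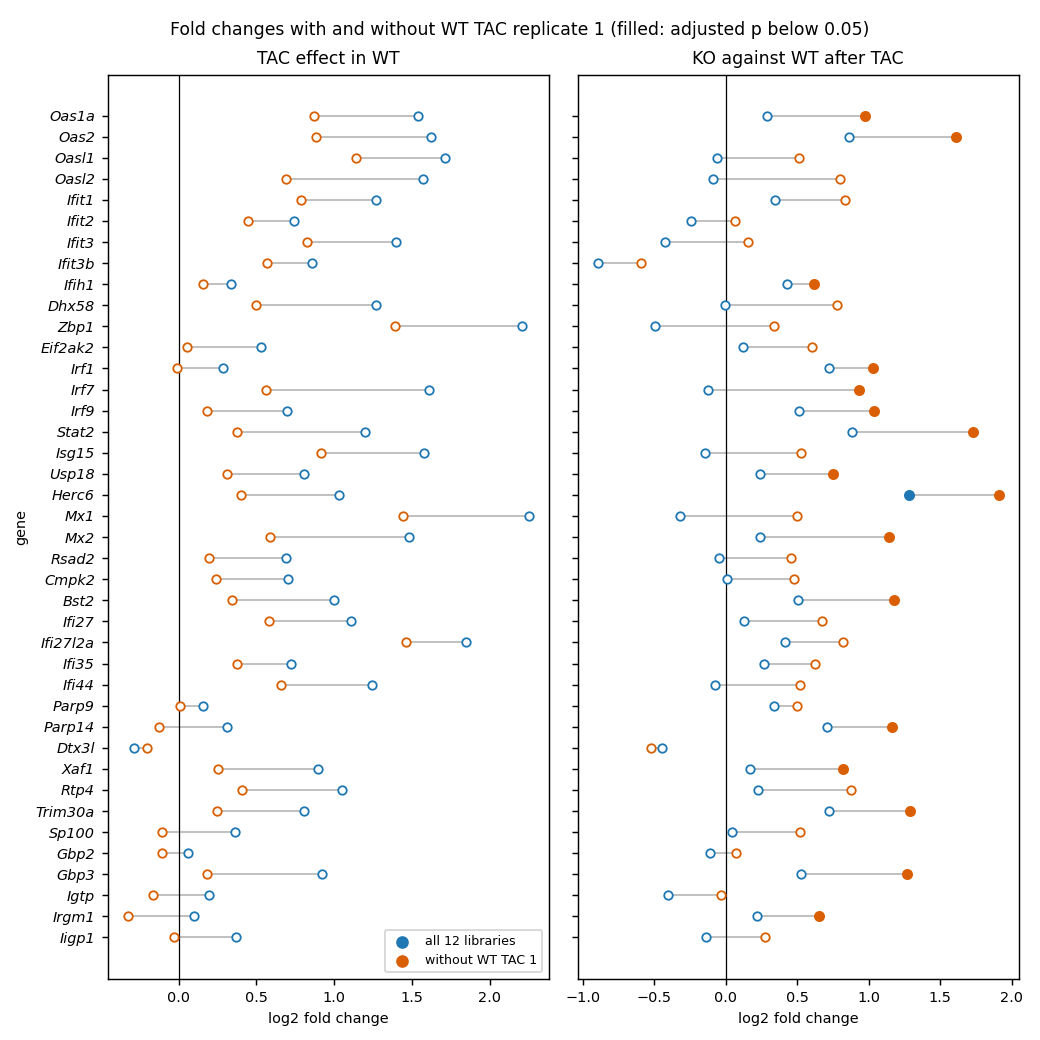
Each row is a tested member, the horizontal axis is its log2 fold change, blue points use all 12 libraries, orange points leave out WT TAC 1, and filled points had an adjusted p below 0.05. Nearly every member moves left in the TAC effect of WT hearts and right in the KO against WT comparison after TAC. There 16 are called without that library, against 33.6% of all genes, and 1 with it, against 20.4%.

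The same question in KO hearts gave Herc6, Oas2 and Irf1 higher values after TAC than after sham and Dtx3l lower ones, with Ifit2, Ifit3 and Ifit3b near 0. No member was called by edgeR (0% of all genes), and 3 had an unadjusted p below 0.05, a smaller share than the 30.9% of all genes. DESeq2 called 1 member (12.4% of all genes) and limma-voom 21 (63.2%), again smaller shares than over all genes. The median log2 fold change was 0.30 against -0.017 over all genes, and 32 of 40 were positive. The 4 members with the smallest p went both ways: Dtx3l was at -0.78 ± 0.23 (adjusted p = 0.103), Herc6 at 1.04 ± 0.38 (0.116), Irf1 at 0.74 ± 0.28 (0.119) and Oas2 at 0.97 ± 0.48 (0.186). In 7 members, Oas1a, Oas2, Irf1, Irf7, Irf9, Usp18 and Herc6, all KO TAC libraries lay above all KO sham libraries, where 11.6% of all genes did. Without WT TAC 1 again no member was called, where 0.0062% of genes were, and 8 had an unadjusted p below 0.05, where 34% of genes did.

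Without KO sham 1, 9 members were called higher and 1 lower, but 47.6% of all genes were called, so the share of members was below that of all genes. The 9 were Bst2, Herc6, Ifi27, Ifi27l2a, Ifi35, Irf1, Oas2, Stat2 and Trim30a, and the lower one was Dtx3l. Stat2 had a log2 fold change of 1.66 ± 0.47 (adjusted p = 0.0129), Ifi27l2a of 1.79 ± 0.30 (0.000724) and Dtx3l of -1.04 ± 0.15 (0.000374). Other members stayed near 0 on the same scale, with Isg15 at 0.15 ± 0.40, Ifit2 at -0.18 ± 0.29, Rsad2 at 0.12 ± 0.35 and Ifi44 at -0.17 ± 0.36. In 23 members KO TAC lay above KO sham 2 and 3, against 35.8% of all genes. In 2, Ifit2 and Dtx3l, it lay below, and the share of all genes below was not counted. Leaving out KO sham 1 can only raise or keep both counts. Without both libraries 17 members were called higher and 1 lower, against 55.5% of all genes.

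**Figure D4:**
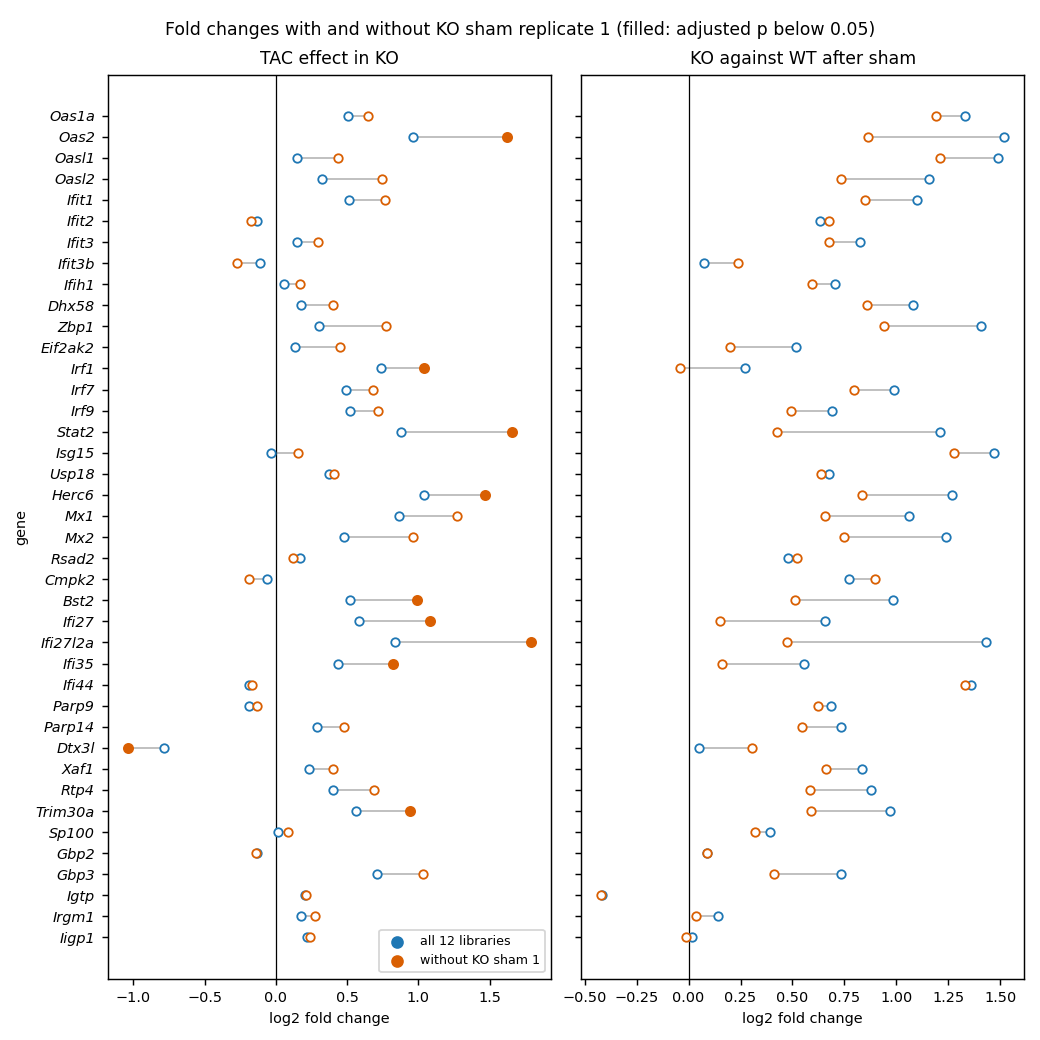
Each row is a tested member, the horizontal axis is its log2 fold change, blue points use all 12 libraries, orange points leave out KO sham 1, and filled points had an adjusted p below 0.05. In KO hearts the TAC effect of Oas2, Stat2 and Ifi27l2a moves right and becomes significant, Dtx3l is the filled point on the left, and in the sham comparison no point is filled.

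Deleting Cd163 without overload was the second question. KO sham hearts had higher values than WT sham hearts for 39 of 40 members, with a median log2 fold change of 0.80 against 0.0070 over all genes. No member was called by edgeR, and 0.00633% of all genes were, 1 of 15804. At an unadjusted p below 0.05 there were 22 members, against 13.5% of all genes. DESeq2 called 2 members (1.36% of all genes) and limma-voom 24 (14.9%). Ifi44 came first at 1.36 ± 0.34 (adjusted p = 0.241), followed by Isg15 at 1.47 ± 0.40 (0.245), Parp9 at 0.69 ± 0.19 (0.26) and Ifih1 at 0.71 ± 0.20 (0.265). All 3 KO sham libraries lay above all 3 WT sham libraries in 28 of 40 members and below in none, where 12.2% of all genes lay above. The OAS genes, the ISG15 system and the small interferon-induced proteins had medians of 1.41, 1.27 and 1.01, while the GTPases had 0.089 and Igtp read -0.42.

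Without KO sham 1, the library that stood apart, several fold changes were smaller. KO sham 2 and 3 had 37 of 40 members above the mean of WT sham, at a median of 1.50 times. In 30 members both lay above all WT sham libraries, where 18.4% of all genes did, a count that leaving out a library of the higher group can only raise or keep. The median log2 fold change was 0.59 over 41 members tested, and none was called by edgeR, where 0.241% of all genes were. At an unadjusted p below 0.05 there were 10, against 9.63% of all genes. Ifi44 stayed at 1.33 ± 0.36 and Isg15 at 1.28 ± 0.42, whereas Stat2 moved from 1.21 to 0.43 and Ifi27l2a from 1.43 to 0.47. Without WT TAC 1 none was called either (0% of genes), with 27 at an unadjusted p below 0.05, against 15.8% of genes. Without both, 4 were called higher, Herc6, Ifi44, Isg15 and Oas1a, against 1.84% of all genes. Ifi44 then had an adjusted p of 0.00598.

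KO and WT hearts were next compared after TAC. With all libraries Herc6 was higher in KO TAC, at a log2 fold change of 1.28 ± 0.39 (adjusted p = 0.0404), and was the 1 member called, against 20.4% of all genes. The members' share was thus below the share of all genes. The median log2 fold change was 0.15, with 24 of 40 positive. Scaled to library totals instead, which moves the median of all genes in this comparison by -0.218, it was -0.12 with 15 positive. Relative to the median of all genes it was 0.165 with TMM and 0.119 with library totals, so its sign changes with the scaling, while it stays above the median of all genes in both. Irf1 was at 0.72 ± 0.28 (adjusted p = 0.0745), Parp14 at 0.71 ± 0.28 (0.0844) and Ifit3b at -0.89 ± 0.38 (0.1). The groups lay apart in 3 members, with Irf1 and Herc6 higher and Dtx3l lower in KO TAC, and 22.7% of all genes lay higher. The call of Herc6 was lost when any 1 library of WT sham, WT TAC 3, WT TAC 5 or any 1 library of KO TAC was left out.

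Leaving out WT TAC 1 changed this comparison most among single libraries. The median was then 0.66 with 37 of 40 positive, and 16 members were called higher and none lower, against 33.6% of all genes called in either direction, so the members' share was near that of all genes. They were all 4 transcription factors, the OAS genes Oas1a and Oas2, the sensor Ifih1, Herc6 and Usp18, the effectors Bst2 and Mx2, the regulators Parp14, Trim30a and Xaf1, and the GTPases Gbp3 and Irgm1. Herc6 was at 1.91 ± 0.32 (adjusted p = 0.0106), Stat2 at 1.73 ± 0.46 (0.0203) and Irf9 at 1.04 ± 0.21 (0.0126). No IFIT gene was among them, and Ifit2 was at 0.066 ± 0.27, Ifit3 at 0.16 ± 0.36 and Ifit3b at -0.59 ± 0.40. KO TAC lay above WT TAC 3 and 5 in 27 members, where 33.3% of all genes did. Leaving out a library of the lower group can only raise or keep that count. WT TAC 1 was the highest WT TAC library for 39 of 40 members, so leaving it out also raises the median. The KO TAC libraries were also the TAC libraries with the higher mitochondrial share and the lower cardiomyocyte marker sum given above, and the part of these in the difference was not tested. Without KO sham 1, 3 members were called higher (Herc6, Irf1 and Parp14) and Dtx3l lower, against 40.7% of genes. Without both, 26 were called higher and 1 lower, against 53.8%.

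Whether the TAC effect differed between genotypes was tested by the interaction. With all libraries 36 of 40 estimates were negative, that is a TAC effect lower in KO than in WT. The median over the 40 was -0.53 against -0.067 over all genes. No member was called by edgeR (0% of genes) or by DESeq2 (0.43%). At an unadjusted p below 0.05 there were 5, against 9.19% of genes, and limma-voom called 6, a smaller share than its 32% of all genes. Ifi44 was at -1.43 ± 0.48 (adjusted p = 0.467), Isg15 at -1.61 ± 0.56 (0.478), Oasl1 at -1.56 ± 0.61 (0.506) and Zbp1 at -1.90 ± 0.79 (0.53). Without WT TAC 1 the median was -0.0081 with 18 of 40 positive, and none was called, where 0.0248% of genes were. An unadjusted p below 0.05 was reached by 2 members, against 14.3% of genes. Without KO sham 1 the median was -0.36 and Dtx3l was called lower (-0.75 ± 0.21, adjusted p = 0.0361), against 12.1% of genes. Without both the median was 0.13, with Herc6, Irf1, Irgm1, Parp14, Stat2 and Trim30a called higher and Dtx3l and Ifi44 lower, against 36.1% of genes. The sign of the median thus changed with the libraries left out. The 5 comparisons share groups with each other, so their values are not independent.

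Other genes of the pathway were read from 7 lists of 102 genes in all. Of 10 interferon ligands, 8 had no count in any library, so their levels were not detectable at this depth, where a count of 0 allows up to 3. Ifnb1 and Ifng had totals of 2 and 3 counts over the 12 libraries, too few to compare groups. Of 6 receptor genes, Ifngr2, a chain of the type II receptor, was called lower in KO against WT after TAC, where 20.4% of all genes were called. It read 144, 142 and 113 CPM in WT sham, 47.9, 85.3 and 130.5 in WT TAC, 29.6, 153 and 127 in KO sham, and 30.2, 27.7 and 28.2 in KO TAC. KO TAC and KO sham 1 were the 4 lowest libraries, and its log2 fold change was -1.61 ± 0.49 (adjusted p = 0.0412). Il10rb, shared by the type III interferon and interleukin-10 receptors, was at -0.50 ± 0.20 (0.0893). Of 12 signalling genes none was called with all libraries, against the same 20.4% of all genes after TAC. The smallest p belonged to Irf8 and Irf5, factors of myeloid cells, at 0.77 ± 0.29 (0.0736) and 0.70 ± 0.28 (0.0863) for KO against WT after TAC.

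Of 12 further sensors and adaptors 11 were tested, with 2 called higher and 1 lower after TAC, where 20.4% of all genes were called. The RNA sensor Rigi (Ddx58 in the reference) was at 0.84 ± 0.26 (adjusted p = 0.0427) and the DNA sensor Cgas at 1.15 ± 0.37 (0.0469), while Mavs, the adaptor of RNA sensors on mitochondria, was at -1.01 ± 0.33 (0.0494). Among 42 further interferon-inducible genes 40 were tested, with Slfn5 (0.98 ± 0.23, 0.0229) and Ifi203 (1.05 ± 0.33, 0.0451) called higher and none lower, a smaller share than that of all genes. Ifi207 was at 0.80 ± 0.31 (0.0768). Without WT TAC 1 the count in this list was 19 higher and none lower, where 33.6% of all genes were called. Of 16 genes of class I antigen presentation, Psme1, a proteasome activator, was called lower (-0.75 ± 0.18, 0.0233), and Psmb10, an immunoproteasome subunit, was at 0.61 ± 0.22 (0.227) for TAC in WT. Without WT TAC 1, 6 of the 16 were called higher and 1 lower, against the same 33.6% of all genes. Of 4 chemokines 3 were tested and none called, with Cxcl9 at 0.90 ± 0.39 (0.106) and Cxcl10 at 1.42 ± 0.68 (0.322) for TAC in WT. In the other 4 comparisons with all libraries, edgeR called no gene of these lists.

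Markers of cell types were read beside these results, and their part in them was not tested. The 8 cardiomyocyte markers, all detected, summed to 60240 to 62510 CPM in WT sham, 52250 to 57150 in WT TAC, 26870 to 53930 in KO sham and 34090 to 36650 in KO TAC. The 12 macrophage markers, all tested, summed to 254.6 to 289.8 CPM in WT sham, 280.5 to 441.5 in WT TAC, 337.4 to 367.2 in KO sham and 339.3 to 346.4 in KO TAC. WT TAC 1, the library with the highest members, read 338.2 CPM, and KO sham 1 read 337.4 CPM, the lowest of its group. Fibroblast markers summed to 772.4 to 923.5 CPM in WT sham, 680.5 to 1332 in WT TAC, 932.2 to 1508 in KO sham and 1222 to 1450 in KO TAC. Endothelial markers summed to 918.4 to 1198, 792.3 to 1161, 1124 to 1443 and 1220 to 1287 CPM in the same order. Mural markers summed to 779.1 to 854.1, 800.7 to 947.1, 548.9 to 1109 and 581.6 to 623.9 CPM. KO TAC thus stood above WT TAC in the endothelial sum and below it in the mural and cardiomyocyte sums, and KO sham 1 was the lowest KO sham library in both of the latter. The 4 markers of plasmacytoid dendritic cells, the main producers of type I interferon, summed to at most 1.77 CPM in any library, and none was tested. The 5 inflammatory monocyte markers summed to at most 15.8 CPM, the 7 neutrophil markers to at most 11.7 CPM, the 10 T and NK cell markers to at most 5.51 CPM and the B cell markers to at most 5.87 CPM, with Ly6g at 1 count over all libraries.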

How the data were processed

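The authors deposited 1 table of raw counts per Ensembl gene for 12 heart libraries. HISAT2 is named as aligner per the submitters' processing notes. No source used here names the counting program, the genome build or the use of strand. Symbols, exon lengths and overlaps were taken from GENCODE M21 (GRCm38), and promoters from RefSeq. Depth was 14150109 to 22602225 counts per library.

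The counts were tested with edgeR 4.0.16 (R 4.3.3): TMM scaling, the default filter by group, and robust quasi-likelihood fits with a mean for each of the 4 groups (8 residual degrees of freedom). P-values were adjusted by Benjamini-Hochberg over all genes and called at 0.05. The 5 comparisons were also fitted without WT TAC 1, without KO sham 1 and without both. Alternatives were DESeq2 1.42.0, limma 3.58.1 (voom with sample weights), other scalings and filters, a replicate block and each library left out. The edgeR step was tested on simulated data. Levels are TMM-scaled CPM, and SE is the fold change divided by the root of the F statistic.

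Values per library are given for the 2 members of each role with the highest mean CPM, the 4 with the smallest p in each comparison and any called member. Irf7 was added to these after its values were seen. Of each further list the 2 genes with the smallest p are named, and any other called gene. The members and lists were chosen with earlier results of these data known.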

Additional observations from a re-analysis of the deposited data

How the results depend on the processing

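The 4 members with the smallest p in each comparison gave 416 alternative values, of which none changed sign. Of these, 355 kept both direction and side of the threshold, 51 passed it only in the alternative and 10 only with the settings reported. Members chosen by a small p seldom change sign, so these values do not describe the other members. For KO against WT after TAC, leaving out WT TAC 1 moved Irf7 from -0.125 to 0.93 and Isg15 from -0.147 to 0.529. Counts of called members moved more than their medians. With DESeq2 they were 10 for TAC in WT (0 reported), 1 for TAC in KO (0) and 2 for genotype after sham (0), where DESeq2 called 2.93%, 12.4% and 1.36% of all genes. With limma-voom and sample weights they were 7, 21 and 24 in the same order, 16 for genotype after TAC (1) and 6 for the interaction (0), where it called 6.52%, 63.2%, 14.9%, 48.4% and 32% of all genes. Without a filter on low counts they were 4, 1, 1 and 0 for the first 4 comparisons, against 0.427%, 2.14%, 0.249% and 8.88% of all genes. Fitting only the groups compared gave 1 for TAC in WT (0.597% of all genes) and 2 for genotype after TAC (30.2%), and library totals gave 0 for the latter (22.3%). Leaving out 1 library at a time gave counts of 0 to 8 for TAC in WT, 0 to 10 for TAC in KO, 0 in each case for genotype after sham, 0 to 16 for genotype after TAC and 0 to 1 for the interaction. The medians ran from 0.373 to 1.26 for TAC in WT, from -0.115 to 0.663 for genotype after TAC and from -0.828 to -0.00807 for the interaction. Without both KO sham 1 and WT TAC 1 the counts were 4, 18, 4, 27 and 8 in the order of the report, against 6.18%, 55.5%, 1.84%, 53.8% and 36.1% of all genes, and the medians 0.385 for TAC in WT, 0.66 for genotype after TAC and 0.129 for the interaction. The cause of these shifts was not tested. With the replicate block the counts were 0, 0, 0, 1 and 0 and the medians 0.747, 0.184, 0.792, 0.252 and -0.413, so it changed no call. Same-numbered libraries did not deviate together (correlations from -0.194 to 0.06), which gives no sign of pairing. Differently numbered libraries were not compared with them, so whether the numbers pair the samples was not settled. Members with few counts, such as Zbp1, Mx1 and Oas3, are the least precise.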
